A study of Mus musculus with 9 samples.

Results

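The 9 genes described here encode growth factors that macrophages can release: the EGF-family ligands *Hbegf*, *Areg*, *Ereg* and *Tgfa*, the platelet-derived growth factor chains *Pdgfa* and *Pdgfb*, *Igf1*, *Hgf*, and *Spp1*, the gene of osteopontin. They were taken by symbol from the 54059 genes of the deposited expression table, with earlier results of these data known. RNA was sequenced from peritoneal macrophages of C57BL/6 mice, aged 8 weeks by the sample labels, in 3 groups of 3 libraries. The question was how loss or inhibition of the tyrosine phosphatase SHP2 changes the response of macrophages to imiquimod (IMQ), an agonist of Toll-like receptor 7. Mice of all groups received 1 ml of starch broth in the peritoneal cavity, an irritant that draws macrophages there, and 3 days later the cells that adhered to the dish were kept. Per the study's methods, all cells were then given IMQ for 4 h. The wild-type group received IMQ alone. The M-*Shp2*-/- group came from mice with floxed *Shp2* and *Lyz2*-cre, which deletes the gene in monocytes, mature macrophages and granulocytes. The SHP099 group was wild-type cells pretreated with 10 µM SHP099, an allosteric SHP2 inhibitor, for 2 h before IMQ at 10 µg/ml. Whether the 3 libraries of a group came from separate mice is not given, so p values here measure the spread between these samples, which may be technical.

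EGF-family ligands are made as membrane-anchored precursors, which proteases of the ADAM family cut so that the free ligand can bind EGF receptor and its ErbB relatives. PDGF chains and IGF-1 act on receptor tyrosine kinases of fibroblasts and many other cells, HGF acts on the receptor MET, and osteopontin is a secreted matrix protein bound by integrins and CD44. SHP2 itself works downstream of such receptors, where it is known for passing signals on to the Ras and ERK pathway, and macrophages are known as a source of these factors in wounds and inflamed tissue.

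Values are FPKM, read fragments scaled to transcript length and library depth, which allow levels to be compared between genes. Between libraries they depend on the scaling, as given below. Each comparison used limma on log2(FPKM + 1) for the 11450 genes whose FPKM averaged 1 or more in the 9 libraries, and all log2 fold changes below are on that scale, which understates the change of genes with low values. The stricter of 2 rules is that of the study's methods: an adjusted p up to 0.005 together with a log2 fold change of 1 or more in either direction. The wider rule asks for an adjusted p up to 0.05 at any fold change. Each library rests on 39842783 to 50980869 reads. With 3 libraries on each side, exact permutation p values start at 0.1. The comparisons of M-*Shp2*-/- and of SHP099 with wild type share the wild-type libraries, so their values are set side by side, and the difference between the groups is read from the comparison of M-*Shp2*-/- with SHP099.

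The targeted gene followed the labels. For *Ptpn11*, which encodes SHP2, FPKM values were 45.8, 44.0 and 40.0 in wild-type, 18.6, 17.8 and 18.9 in M-*Shp2*-/- and 43.0, 42.1 and 39.6 in SHP099 libraries. The inhibitor acts on the protein, and the transcript in SHP099 libraries overlapped with wild type. All 8 macrophage markers were tested, led by *Lyz2*, the lysozyme gene whose locus drives the Cre. Their summed FPKM was 10420.2, 13421 and 11189 in wild-type, 7595, 7468 and 8412 in M-*Shp2*-/- and 11778, 13005 and 13736 in SHP099 libraries. Most of this sum and of its difference between groups was *Lyz2*, with group means of 8539.6 FPKM in wild type, 5004 in M-*Shp2*-/- cells and 10115 with SHP099. Its log2 fold change in M-*Shp2*-/- cells was -0.76 against wild type (limma adjusted p = 0.388) and -1.02 against SHP099 (adjusted p = 0.0555). *Cd68* had means of 1377, 1523 and 1250.3 FPKM in the same order of groups. Of the 8, *Csf1r*, the receptor of macrophage colony-stimulating factor, rose with SHP099 by 1.38 (limma adjusted p = 0.0222, 0.00394 to 0.116 over the alternatives), and the other 7 passed neither rule in any comparison with wild type. Of the neutrophil list, *S100a8* reached 95.4 FPKM, while *Ly6g*, *Cxcr2* and *Mpo* were at or near 0 in all 9 libraries.

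RNA of marker genes of other cell types differed between libraries of the same group and, for some types, between groups. The 6 fibroblast markers, with *Col1a1* the most abundant, summed to 63.8, 302.5 and 39.8 FPKM in wild-type, 134.5, 51.4 and 585.7 in M-*Shp2*-/- and 361.1, 136.9 and 101.0 in SHP099 libraries. Wild-type replicate 2, M-*Shp2*-/- replicate 3 and SHP099 replicate 1 therefore stood highest in their groups, and the groups overlapped. The 5 mesothelial markers, led by *Wt1* at a mean of 2.80 FPKM, were highest in the same 3 libraries, at 8.65, 11.4 and 8.07 FPKM in sum. Sums of the T cell, mast cell and platelet lists stayed at or under 5.62 FPKM, with *Cd3g*, *Kit* and *Itga2b* the most abundant genes. The mast cell sum was 3.998 to 5.62 in wild-type, 0.995 to 3.17 in M-*Shp2*-/- and 0.495 to 0.970 in SHP099 libraries, which did not overlap, and *Kit* passed neither rule in limma. The T cell sum was 0.288 to 2.36 in M-*Shp2*-/- and 3.56 to 5.40 in SHP099 libraries, with wild type at 0.668 to 4.01 overlapping both. No gene of any marker list was at 0 in every library. M-*Shp2*-/- replicate 3 also stood apart over all genes, with correlations of log2 values of 0.967 and 0.954 with the other libraries of its group, which correlated at 0.992 with each other. In bulk RNA, fewer cells of a type and less RNA per cell cannot be told apart.

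The members spanned a wide range of levels. In wild-type cells the mean FPKM was 1585 for *Spp1*, 36.1 for *Igf1*, 24.0 for *Pdgfa*, 12.0 for *Pdgfb* and 9.85 for *Hbegf*, and 1.46 for *Ereg*, 1.00 for *Hgf*, 0.614 for *Tgfa* and 0.343 for *Areg*. *Spp1* and *Igf1* stood clear of the gene below them in every library. *Pdgfa* overlapped with *Pdgfb* and *Pdgfb* with *Hbegf*, and the last 4 genes overlapped from each to the next. The order was the same in M-*Shp2*-/- cells, where *Igf1* (44.7) overlapped with *Pdgfa* (23.6) and *Hbegf* (3.74) with *Ereg* (1.79). With SHP099, *Pdgfb* (7.94) stood above *Pdgfa* (5.22) in all libraries, and *Hbegf* (1.35) overlapped with *Hgf* (1.23). *Areg* and *Tgfa*, with means of 0.211 and 0.604 FPKM over the 9 libraries, were below the filter, so 7 of the 9 members entered the fit. Of the 9, 5 lie on chromosome 5 (*Areg*, *Ereg*, *Hgf*, *Pdgfa* and *Spp1*), and *Ereg* and *Areg* are neighbours there, with 45952 bases between them.

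**Figure D1:**
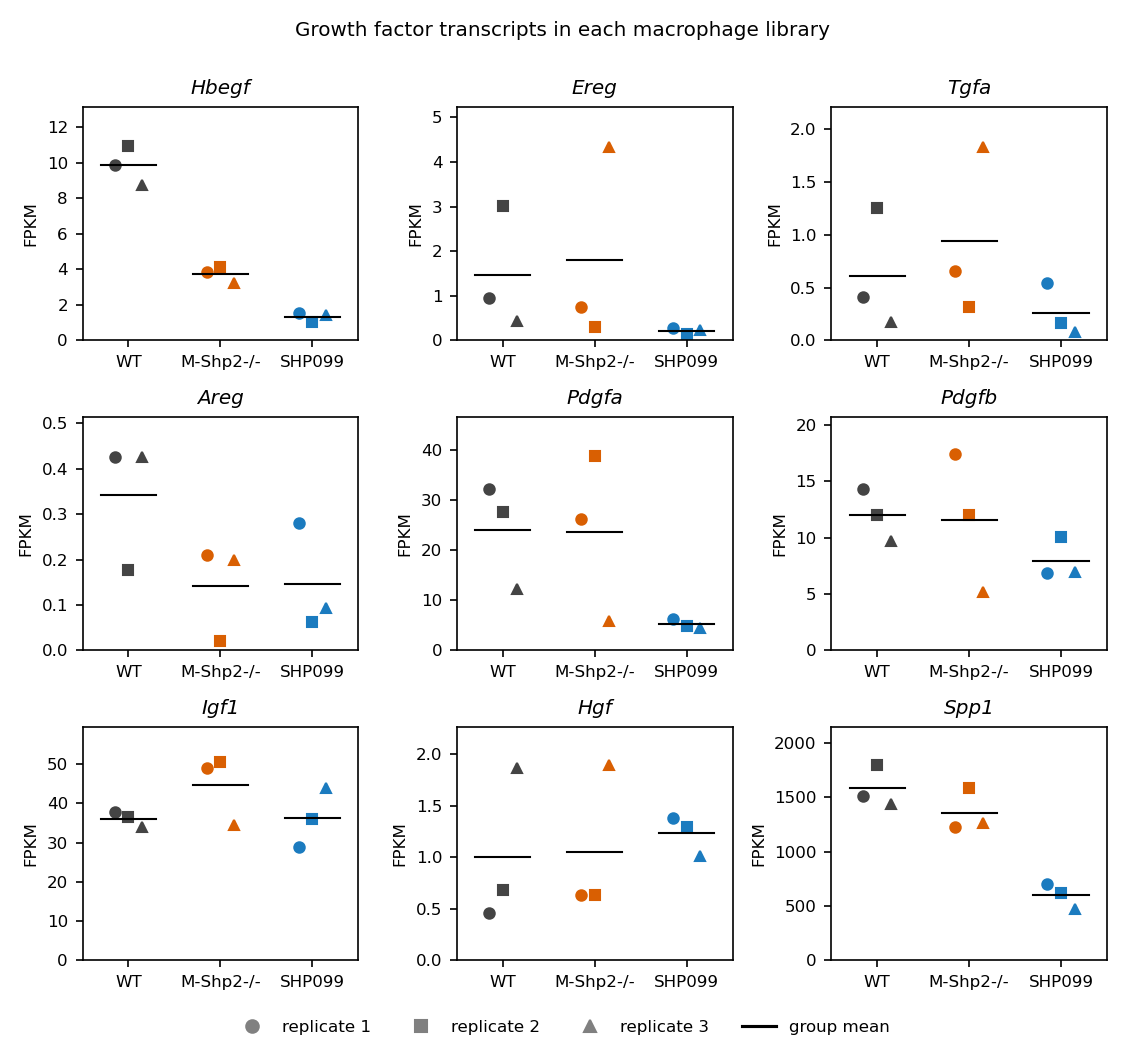
FPKM of each growth factor gene (vertical axis, starting at 0) in the 3 wild-type, 3 M-Shp2-/- and 3 SHP099 libraries. Points are single libraries, their shape is the replicate number, and the line is the group mean. The 3 groups of Hbegf do not overlap, and the SHP099 libraries of Spp1 lie between 475 and 699 below all others. M-Shp2-/- replicate 3 sits apart from its group for Ereg, Tgfa, Pdgfa, Igf1 and Hgf, and is the lowest library of all for Pdgfb.

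With SHP099, 3 of the 7 members tested passed the wider rule and all 3 were lower than in wild type: *Hbegf*, *Spp1* and *Pdgfa*. Of all genes tested, 6.96% passed this rule in that comparison and 2.41% passed it as lower. By the stricter rule 1 member was called, *Hbegf*, against 0.166% of all genes. Between M-*Shp2*-/- and wild type, limma called 0 of 7 members by either rule, against 0.00873% and 0.0873% of all genes, and 1 member had an unadjusted p under 0.05. Over all genes, 1204 of 11450 did so. Between M-*Shp2*-/- and SHP099 it also called 0 of 7 by either rule, against 0.0% and 0.0699% of all genes, and 3 members had an unadjusted p under 0.05, as did 1437 of all 11450 genes. With limma's voom on the reads recovered from FPKM, 3 members passed the wider rule with SHP099, 1 of them the stricter rule as well, and 0 did so in the comparisons of M-*Shp2*-/- with either group. Of all 11353 genes of the voom fit, 779 passed the wider rule and 9 the stricter rule with SHP099. In M-*Shp2*-/- cells 9 genes passed the wider rule by voom against wild type and 14 against SHP099. The median log2 fold change of the 7 members was -0.88 with SHP099, where the median over all genes was 0.13, and -0.17 in M-*Shp2*-/- cells, where that over all genes was 0.15. Between M-*Shp2*-/- and SHP099 it was 0.92, where that over all genes was 0.02. Median-of-ratios scaling moved the medians over all genes to -0.01 in both comparisons with wild type, and the members' values on that scale are given for these comparisons. It also changed the split of genes passing the wider rule with SHP099 from 521 higher and 276 lower to 172 higher and 339 lower.

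Counting members whose libraries did not overlap between groups gave 4 lower with SHP099 (*Hbegf*, *Ereg*, *Pdgfa* and *Spp1*), where 6.77% of all genes lay wholly below wild type. In M-*Shp2*-/- cells it gave 1 lower, *Hbegf*, where 3.07% of genes did so. Between M-*Shp2*-/- and SHP099 it gave 3 higher in M-*Shp2*-/- cells (*Hbegf*, *Ereg* and *Spp1*), where 7.9% of genes did so. *Ereg* passed the filter, at a mean of 1.16 FPKM over the 9 libraries, only through wild-type and M-*Shp2*-/- libraries. Its SHP099 mean was 0.218 FPKM, so its place in these counts depends on the filter.

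**Figure D2:**
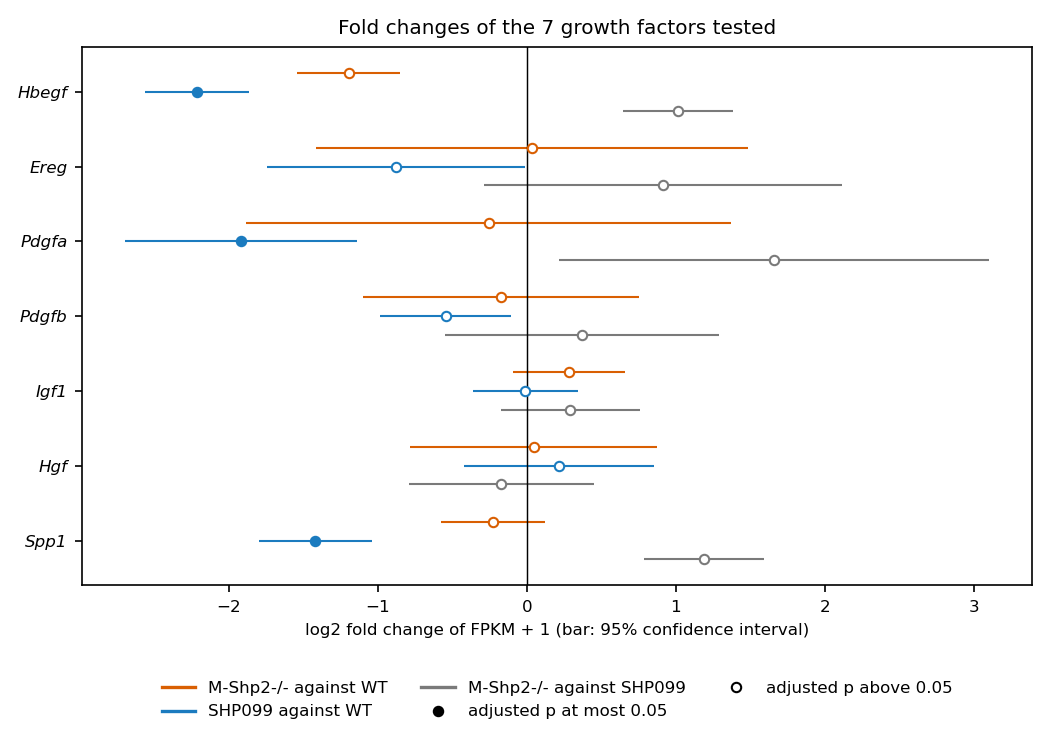
Log2 fold change of FPKM + 1 (horizontal axis) of the 7 members tested, with 95% confidence intervals from limma, for each of the 3 pairs of groups (3 libraries per group). Filled points had an adjusted p of at most 0.05: Hbegf (-2.21), Pdgfa (-1.91) and Spp1 (-1.42), all with SHP099 against wild type.

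*Hbegf* encodes heparin-binding EGF-like growth factor, a ligand of EGF receptor and ErbB4 that activated macrophages release. The gene (ENSMUSG00000024486) lies on chromosome 18 of GRCm38 from 36504927 to 36515805. Its FPKM was 9.87, 10.9 and 8.74 in the wild-type libraries, 3.87, 4.11 and 3.23 in the M-*Shp2*-/- libraries and 1.56, 1.05 and 1.42 in the SHP099 libraries. The groups stood in 3 separate steps, with every M-*Shp2*-/- library between the lowest wild-type and the highest SHP099 library. These values rest on 708 to 1061 reads in wild type and 79 to 131 reads with SHP099. The mean was 9.85 ± 1.09 (SD, n = 3) in wild type, 3.74 ± 0.46 in M-*Shp2*-/- cells, or 37.9% of wild type, and 1.35 ± 0.27 with SHP099, or 13.7%.

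With SHP099, *Hbegf* fell by 2.21 on the log2 scale (standard error 0.15, limma adjusted p = 0.00289), and by 2.33 after median-of-ratios scaling. The adjusted p lay between 0.000307 and 0.0369 over 17 alternatives. Leaving out 1 library at a time gave 0.00394 to 0.0173, above 0.005 for 5 of the 6 libraries (all but wild-type replicate 3), and the log2 fold change stayed between -2.29 and -2.12. The log2 fold change between M-*Shp2*-/- and wild type was -1.20 (standard error 0.14, 95% confidence interval -1.54 to -0.85), and limma's adjusted p of 0.0846 missed both rules. With median-of-ratios scaling the log2 fold change was -1.35. The adjusted p was 0.0167 with that scaling, 0.0153 with quantile normalization and 0.0475 with all 9 libraries in 1 fit, within a range of 0.0153 to 0.577 over the alternatives.

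*Ereg* encodes epiregulin, a ligand of EGF receptor and ErbB4, and *Tgfa* encodes transforming growth factor alpha, a ligand of EGF receptor. The FPKM of *Ereg* was 0.945, 3.01 and 0.433 in wild-type, 0.746, 0.294 and 4.34 in M-*Shp2*-/- and 0.287, 0.140 and 0.227 in SHP099 libraries. That of *Tgfa* was 0.411, 1.25 and 0.179 in wild-type, 0.657, 0.320 and 1.83 in M-*Shp2*-/- and 0.542, 0.165 and 0.0809 in SHP099 libraries. Both genes were highest in M-*Shp2*-/- replicate 3 and next in wild-type replicate 2, and both were highest within the SHP099 group in replicate 1. These are the libraries with the most fibroblast marker RNA, and what part it has in the values of *Ereg* and *Tgfa* was not tested. All SHP099 libraries of *Ereg* were below those of both other groups, narrowly so for M-*Shp2*-/- replicate 2, while its wild-type and M-*Shp2*-/- groups overlapped, as did all groups of *Tgfa*.

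**Figure D3:**
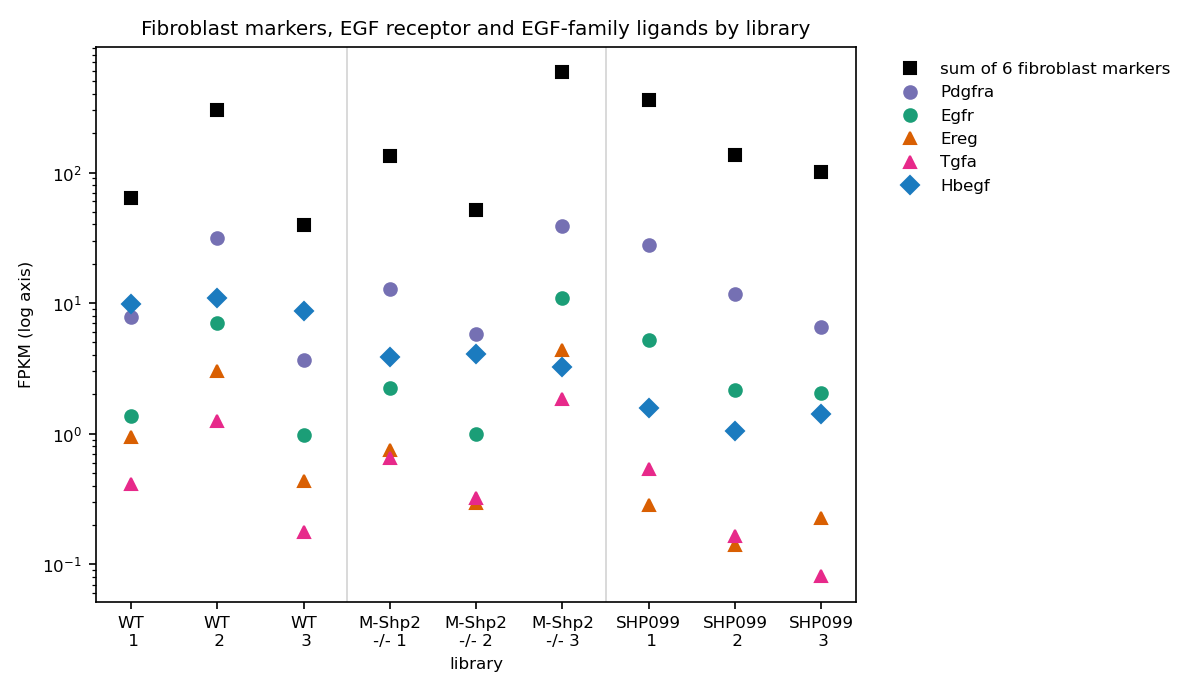
FPKM (log axis) in each of the 9 libraries of the 6 fibroblast markers in sum, of the receptor genes Pdgfra (itself 1 of the 6) and Egfr, and of Ereg, Tgfa and Hbegf. Points are single libraries. The marker sum is highest within each group in wild-type replicate 2 (302.5), M-Shp2-/- replicate 3 (585.7) and SHP099 replicate 1 (361.1), where Egfr, Pdgfra, Ereg and Tgfa are also at their group's highest, while Hbegf is at its group's highest in the first and last of these libraries and at its group's lowest in M-Shp2-/- replicate 3 (3.23).

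For *Ereg*, limma gave a log2 fold change of -0.88 with SHP099 (standard error 0.37, adjusted p = 0.181) and of 0.04 in M-*Shp2*-/- cells (standard error 0.61, adjusted p = 0.980). The former was -0.92 with median-of-ratios scaling and -2.39 with voom, and it ran from -1.20 without wild-type replicate 3 to -0.46 without wild-type replicate 2. The latter was -0.57 without M-*Shp2*-/- replicate 3 and 0.46 without wild-type replicate 2, and it changed sign under several scalings, with values of -0.03 for median-of-ratios and -0.08 for quantile normalization. *Tgfa* was tested by itself, with an exact two-sided permutation test of log2(FPKM + 1), which gave p = 0.6 for M-*Shp2*-/- against wild type, 0.5 for SHP099 against wild type and 0.2 for M-*Shp2*-/- against SHP099 (n = 3 per group).

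*Areg* encodes amphiregulin, a ligand of EGF receptor. It is shown with its promoter because its mean was the lowest of the 9 in each group and its promoter held more motif matches than that of any other member with an entry. The RefSeq sequence of the 250 bases before its start, chr5:91139349-91139598 on the plus strand of GRCm38.p6, reads 5′ to 3′ as follows, with the matches to the cyclic AMP response element TGACGTCA and to the TATA box TATAAA in capitals.
Areg: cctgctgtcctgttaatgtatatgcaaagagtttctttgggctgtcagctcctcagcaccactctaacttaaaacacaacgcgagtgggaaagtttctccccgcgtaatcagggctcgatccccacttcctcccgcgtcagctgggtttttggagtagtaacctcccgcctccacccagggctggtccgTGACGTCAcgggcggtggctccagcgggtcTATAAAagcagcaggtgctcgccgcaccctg
The first match starts 61 bases and the second 31 bases before the gene's start. Among all 32851 promoters of the table, 1.55% hold TGACGTCA and 12.4% hold TATAAA on either strand within the same window. These matches describe the sequence and say nothing of use in these cells.

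*Areg* had an FPKM of 0.427, 0.178 and 0.426 in wild-type, 0.210, 0.0200 and 0.199 in M-*Shp2*-/- and 0.281, 0.0620 and 0.0939 in SHP099 libraries. The groups overlapped, and the values stand for no more than 1 to 23 reads per library, against a floor of 3 reads set at 0.0600 FPKM in M-*Shp2*-/- replicate 2, whose value is below it. This floor covers counting error only. The exact permutation p was 0.3 for M-*Shp2*-/- and 0.2 for SHP099 against wild type, and 1.0 between the 2 (two-sided, n = 3 per group).

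*Hbegf* made up most of the RNA of the 4 EGF-family members in 8 of the 9 libraries. Its share of their summed FPKM was 84.7%, 71.1% and 89.4% in wild-type, 70.6%, 86.6% and 33.6% in M-*Shp2*-/- and 58.5%, 74.0% and 78.0% in SHP099 libraries. The low share of M-*Shp2*-/- replicate 3 goes with its *Ereg* and *Tgfa* values. The sum of the 4 genes was 9.78 to 15.4 FPKM in wild type, 4.74 to 9.60 in M-*Shp2*-/- cells and 1.41 to 2.68 with SHP099. These ranges did not overlap, and were not tested as a sum.

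Of 7 other EGF-family ligand genes, 2 were tested. *Nrg1*, whose product neuregulin 1 binds ErbB3 and ErbB4, had an FPKM of 4.53, 2.52 and 1.66 in wild-type, 1.14, 1.24 and 0.932 in M-*Shp2*-/- and 0.341, 0.303 and 0.452 in SHP099 libraries. Like those of *Hbegf*, its 3 groups did not overlap, and M-*Shp2*-/- cells stood in between. *Nrg1* fell by 1.45 on the log2 scale with SHP099 (standard error 0.27, limma adjusted p = 0.0305), and its value in M-*Shp2*-/- cells was -0.83 (adjusted p = 0.462). With each library left out, limma's adjusted p with SHP099 was 0.0147 to 0.14, above 0.05 in 5 of 6 fits. The SHP099 mean of *Nrg1* was 0.365 FPKM, and it passed the filter through the other libraries, with a wild-type mean of 2.90. *Nrg4*, the other gene tested and the most abundant of the list at a mean of 1.50 FPKM, shares exons with *Fbxo22* on the opposite strand and had log2 fold changes of 0.10 and 0.27 in M-*Shp2*-/- cells and with SHP099. *Egf*, *Btc*, *Epgn*, *Nrg2* and *Nrg3* were below the filter, and *Nrg3* was at 0 in all libraries.

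The receptors of these ligands were scarce. *Egfr* had an FPKM of 1.37, 6.99 and 0.971 in wild-type, 2.26, 1.00 and 10.9 in M-*Shp2*-/- and 5.18, 2.17 and 2.06 in SHP099 libraries, highest where fibroblast markers were highest. *Erbb2* and *Erbb3* had means of 0.457 and 0.729 FPKM, below the filter, and *Erbb4* was at 0 in all 9 libraries. Of the list of 9 receptors and feedback inhibitors, 5 were tested and 1 passed the wider rule with SHP099. This was *Errfi1*, an inhibitor that binds the kinase domain of EGF receptor and is itself induced by growth factor signals. Its FPKM was 9.13, 11.3 and 8.35 in wild-type, 8.57, 4.39 and 15.4 in M-*Shp2*-/- and 5.06, 3.74 and 3.67 in SHP099 libraries. M-*Shp2*-/- libraries spread over both other groups, and the SHP099 libraries were all below wild type. *Errfi1* fell by 1.04 with SHP099 (standard error 0.16, limma adjusted p = 0.0207), and its log2 fold change in M-*Shp2*-/- cells was -0.15 (adjusted p = 0.852). *Cbl*, a ubiquitin ligase of activated receptors and the most abundant gene of the list at a mean of 196.7 FPKM, had values of 0.14 and 0.21.

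All 10 genes of ectodomain shedding were tested, and 1 was lower and 1 higher with SHP099 by the wider rule. *Adam10*, a protease that sheds betacellulin and EGF among many substrates, rose by 0.49 on the log2 scale, from FPKM values of 59.1, 68.6 and 58.0 to 92.6, 90.6 and 79.5 (limma adjusted p = 0.0366). *Adam8*, a protease of leukocytes, fell by 0.88, from 39.9, 58.1 and 57.6 to 30.5, 27.0 and 24.9 (limma adjusted p = 0.0280). In M-*Shp2*-/- cells replicate 3 was highest for both, at 102.5 for *Adam10* and 86.4 for *Adam8*, and the other libraries were at 63.6 to 69.6 and at 29.2 to 31.4. *Adam17*, the main sheddase of HB-EGF, TGF-alpha, amphiregulin and epiregulin, was the most abundant of the list at a mean of 188.9 FPKM. Its log2 fold changes were 0.28 in M-*Shp2*-/- cells (limma adjusted p = 0.470) and 0.39 with SHP099 (adjusted p = 0.121), and it shares exons with *Iah1* on the opposite strand, and the strand used in counting is not given.

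*Pdgfa* and *Pdgfb* encode the A and B chains of PDGF, a mitogen of fibroblasts and smooth muscle cells. *Pdgfa* (ENSMUSG00000025856) spans bases 138976014 to 138997370 of chromosome 5, and its FPKM was 32.2, 27.6 and 12.3 in wild-type, 26.2, 38.8 and 5.87 in M-*Shp2*-/- and 6.20, 4.94 and 4.53 in SHP099 libraries. M-*Shp2*-/- replicate 3 lay within the SHP099 range, while the other 2 libraries of its group lay among or above the wild-type libraries. *Pdgfb* (ENSMUSG00000000489) spans bases 79995874 to 80014977 of chromosome 15, and its FPKM was 14.3, 12.0 and 9.72 in wild-type, 17.4, 12.0 and 5.21 in M-*Shp2*-/- and 6.87, 10.02 and 6.94 in SHP099 libraries. Its groups overlapped in all comparisons, and M-*Shp2*-/- replicate 3 was the lowest of the 9 libraries.

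*Pdgfa* fell by 1.91 with SHP099 (standard error 0.33, limma adjusted p = 0.0247), to 21.7% of the wild-type mean, and by 2.05 after median-of-ratios scaling. The adjusted p was above 0.05 without any 1 of the 3 SHP099 libraries or of wild-type replicates 1 and 2, and reached 0.126. It was 0.0868 with all 9 libraries in 1 fit and 0.107 with no filter on low values. Without wild-type replicate 3 it was 0.00394 and met the stricter rule. For M-*Shp2*-/- cells limma put the log2 fold change at -0.26 (standard error 0.68, adjusted p = 0.858), at -0.43 with median-of-ratios scaling, and from -0.77 without M-*Shp2*-/- replicate 2 to 0.50 without M-*Shp2*-/- replicate 3. For *Pdgfb* limma gave -0.54 with SHP099 (adjusted p = 0.122) and -0.17 in M-*Shp2*-/- cells (adjusted p = 0.830), and the latter ran from -0.52 without M-*Shp2*-/- replicate 1 to 0.26 without M-*Shp2*-/- replicate 3. Median-of-ratios scaling gave *Pdgfb* -0.68 and -0.34 in the same order. Exons of *Pdgfa* overlap 6330403L08Rik on the opposite strand, whose FPKM of 0.908 to 3.66 was lower than that of *Pdgfa* in every library. Reads of the 2 genes cannot be told apart without strand.

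Of the 4 other PDGF genes, *Pdgfc* and *Pdgfd* were below the filter and 0 of the 2 tested receptors passed the wider rule in limma in any comparison, with 1 gene under an unadjusted p of 0.05 in SHP099 against wild type and 0 in the others, and 0 by voom. *Pdgfra*, a receptor of mesenchymal cells and 1 of the fibroblast markers, had an FPKM of 7.81, 31.6 and 3.70 in wild-type, 12.9, 5.81 and 39.2 in M-*Shp2*-/- and 27.9, 11.8 and 6.60 in SHP099 libraries. Its order within each group was that of the fibroblast marker sum.

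*Igf1*, the gene of insulin-like growth factor 1, had an FPKM of 37.7, 36.6 and 33.9 in wild-type, 48.9, 50.6 and 34.6 in M-*Shp2*-/- and 29.0, 35.9 and 44.0 in SHP099 libraries. The groups overlapped, with M-*Shp2*-/- replicates 1 and 2 the highest of all. The log2 fold change was 0.28 in M-*Shp2*-/- cells (95% confidence interval -0.09 to 0.66, limma adjusted p = 0.504) and -0.01 with SHP099 (-0.36 to 0.34, adjusted p = 0.977), so a doubling lies outside both intervals. Median-of-ratios scaling gave 0.11 and -0.16. The value in M-*Shp2*-/- cells was 0.45 without M-*Shp2*-/- replicate 3 and 0.19 without replicate 2 of that group, and the value with SHP099 was between -0.15 and 0.14 with 1 library left out. Of 15 genes of the IGF axis, 8 were tested, limma placed 0 past the wider rule in each comparison with 1 under an unadjusted p of 0.05 in each, and voom placed 1 past it with SHP099 against wild type and 0 in the others. The list's median was 0.26 in M-*Shp2*-/- cells and 0.06 with SHP099, against 0.15 and 0.13 over all genes. *Igf2r*, which carries IGF-2 and lysosomal enzymes to endosomes, was the most abundant at a mean of 199.7 FPKM, with log2 fold changes of 0.14 and 0.15. *Igf2* did not exceed 0.0228 FPKM. The RefSeq window of *Igf1* holds 1 match to the AP-1 motif TGANTCA, 37 bases before the start, which 6.75% of all promoters hold.

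*Hgf*, the gene of hepatocyte growth factor, had an FPKM of 0.455, 0.682 and 1.86 in wild-type, 0.632, 0.636 and 1.89 in M-*Shp2*-/- and 1.38, 1.29 and 1.01 in SHP099 libraries. Replicate 3 was about as high in wild-type as in M-*Shp2*-/- cells, and all groups overlapped. Here the high libraries were not those with the most fibroblast marker RNA in the wild-type group, where the sum was lowest in replicate 3. Log2 fold changes were 0.05 in M-*Shp2*-/- cells (limma adjusted p = 0.949) and 0.22 with SHP099 (adjusted p = 0.660), and -0.04 and 0.13 with median-of-ratios scaling. With 1 library left out, the value in M-*Shp2*-/- cells ran from -0.23 without M-*Shp2*-/- replicate 3 to 0.34 without wild-type replicate 3, and the value with SHP099 from 0.02 without wild-type replicate 1 to 0.51 without wild-type replicate 3. Of 7 genes of the HGF axis 4 were tested and 0 passed the wider rule by limma or by voom in each comparison, with 1 under an unadjusted p of 0.05 in SHP099 against wild type and 0 in the others. The receptor gene *Met* was abundant, at a mean of 124.5 FPKM, with log2 fold changes of -0.25 and 0.08, and *Hgfac*, an activating protease of HGF, did not exceed 0.0756 FPKM.

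*Spp1* was by far the most abundant member. It is shown with its promoter because it fell with SHP099. The gene (ENSMUSG00000029304) spans bases 104435118 to 104441050 of chromosome 5. The window shown is the 250 bases before 1 of its RefSeq starts, chr5:104434861-104435110 on the plus strand of GRCm38.p6. It holds 1 match to the TATA box TATAAA, in capitals, whose first base is 211 bases before that start.
Spp1: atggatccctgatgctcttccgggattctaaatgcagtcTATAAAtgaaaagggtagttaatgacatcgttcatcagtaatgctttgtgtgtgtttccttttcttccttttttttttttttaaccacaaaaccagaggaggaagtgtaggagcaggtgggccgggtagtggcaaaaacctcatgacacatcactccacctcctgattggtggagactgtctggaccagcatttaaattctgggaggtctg
None of TGANTCA, TGACGTCA or the NF-kB and CArG consensus was matched in this window, which says only that these letters are not there. Likewise, the TATAAA match describes the sequence and says nothing of use in these cells. Another RefSeq window of *Spp1*, chr5:104435942-104436191, held no match to any of these motifs. RefSeq promoters were at hand for 6 of the 9 members (*Areg*, *Hgf*, *Igf1*, *Pdgfa*, *Spp1* and *Tgfa*), with 9 windows in all, of which 3 held a match. *Hbegf*, *Ereg* and *Pdgfb* had no entry. The NF-kB consensus is held by 3.9% and the CArG box by 1.47% of all promoters.

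The FPKM of *Spp1* was 1514, 1800.3 and 1440.4 in wild-type, 1225, 1581 and 1266 in M-*Shp2*-/- and 699, 618 and 475 in SHP099 libraries. All SHP099 libraries lay well below the other 2 groups, which overlapped. The mean was 1585 ± 190.2 (SD, n = 3) in wild type, 1357 ± 195 in M-*Shp2*-/- cells and 598 ± 114 with SHP099, or 37.7% of wild type. *Spp1* fell by 1.42 with SHP099 (standard error 0.16, limma adjusted p = 0.00916), and by 1.57 after median-of-ratios scaling. Its adjusted p was 0.0118 to 0.0565 with each library left out in turn, above 0.05 in 1 of the 6 fits (without SHP099 replicate 2), and 0.0633 with no filter on low values, where more genes were tested, within a range of 0.00578 to 0.0633 over the alternatives. For M-*Shp2*-/- cells limma gave *Spp1* a log2 fold change of -0.23 (95% confidence interval -0.57 to 0.12, adjusted p = 0.528). This value was -0.40 with median-of-ratios scaling, -0.09 without the libraries highest in fibroblast markers, and ran from -0.34 without M-*Shp2*-/- replicate 2 to -0.13 without wild-type replicate 2.

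Receptors of osteopontin numbered 9, of which 7 were tested and 2 passed the wider rule with SHP099, both lower. *Cd44*, a receptor for osteopontin and hyaluronan, fell by 0.64, from FPKM values of 307.2, 273.2 and 261.0 to 175.7, 178.0 and 184.6 (limma adjusted p = 0.0141). *Itgav*, the integrin alpha V chain, fell by 0.94, from 43.6, 57.9 and 40.4 to 27.3, 21.3 and 23.4 (limma adjusted p = 0.0228). In M-*Shp2*-/- cells *Cd44* was at 223.8 to 269.4 and *Itgav* at 29.9 to 33.7 FPKM, above every SHP099 library for both genes. *Itgb1*, the most abundant of the list at a mean of 556.1 FPKM, had log2 fold changes of -0.07 in M-*Shp2*-/- cells and 0.07 with SHP099. The median of the list was -0.18 and -0.34, against 0.15 and 0.13 over all genes.

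Among 21 other growth factor genes, 15 were tested, and with SHP099 1 was lower and 2 were higher by the wider rule. *Inhba*, which encodes the subunit of activin A, had an FPKM of 117.9, 244.8 and 213.0 in wild-type, 58.2, 58.7 and 73.5 in M-*Shp2*-/- and 58.3, 32.2 and 61.9 in SHP099 libraries. Both groups lay wholly below wild type and overlapped with each other. *Inhba* fell by 1.89 with SHP099 (limma adjusted p = 0.0258), and its log2 fold change was -1.52 in M-*Shp2*-/- cells (adjusted p = 0.299). *Vegfb*, of the vascular endothelial growth factor family, rose by 0.60 with SHP099 (limma adjusted p = 0.0192), and *Gas6*, a ligand of the TAM receptors, by 0.75 (limma adjusted p = 0.0325). *Grn*, which encodes progranulin, was the most abundant at a mean of 1792 FPKM, with log2 fold changes of 0.13 in M-*Shp2*-/- cells and 0.23 with SHP099.

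Over the 8 lists together, 53 of 82 genes were tested. With SHP099, 6 were lower and 3 higher by the wider rule, which 6.96% of all genes passed, and the median log2 fold change was 0.03, against 0.13 over all genes. By the stricter rule limma and voom each called 0 of 53 in any comparison, with 19 under an unadjusted p of 0.05 in SHP099 against wild type, as were 3061 of all 11450 genes. By the wider rule voom gave 11 with SHP099, where 779 of all 11353 genes of that fit passed. Limma gave 0 in M-*Shp2*-/- cells against either other group, where 9 had an unadjusted p under 0.05 in each and voom also gave 0. Over all genes 1204 of 11450 were under 0.05 against wild type and 1437 against SHP099. Leaving out SHP099 replicate 1 kept 1 of the 9 calls, and leaving out SHP099 replicate 2 or 3, or using no filter, kept 0 of them. Leaving out wild-type replicate 1 or 2 kept 4 and 5. The 9 kept their direction in each of these.

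**Figure D4:**
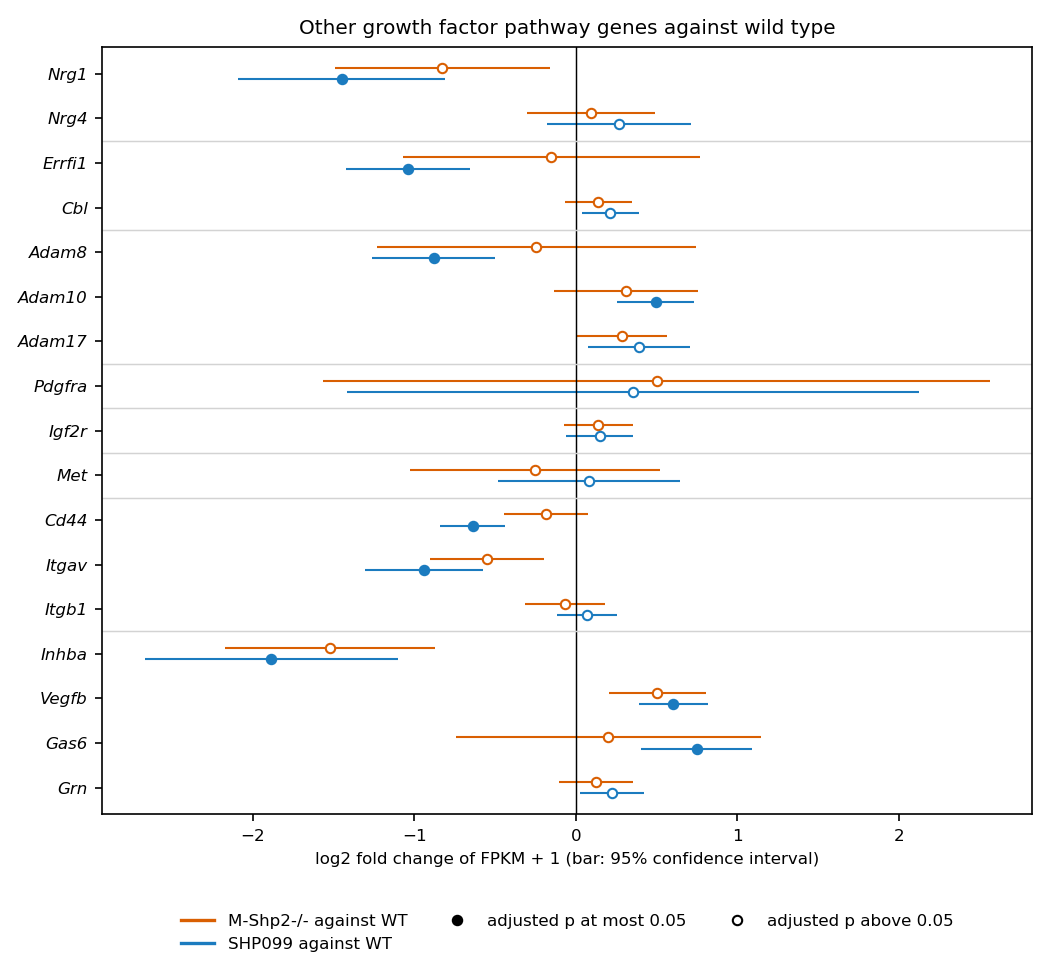
Log2 fold change of FPKM + 1 (horizontal axis) against wild type, with 95% confidence intervals from limma, of the pathway genes that passed an adjusted p of 0.05 or were the most abundant of their list (n = 3 libraries per group). Grey lines separate the lists, from other EGF-family ligands at the top through ErbB, shedding, PDGF, IGF, HGF and osteopontin receptors to other growth factors. The 9 filled points all belong to SHP099, and the longest intervals are those of Pdgfra.

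Set against SHP099 directly, M-*Shp2*-/- cells had higher *Hbegf*, by a log2 fold change of 1.02 (standard error 0.15, limma adjusted p = 0.125), higher *Spp1*, by 1.19 (standard error 0.17, adjusted p = 0.106), and higher *Pdgfa*, by 1.66 (standard error 0.61, adjusted p = 0.359), none of which passed either rule. *Ereg* had 0.92 (limma adjusted p = 0.483), and 0.31 without M-*Shp2*-/- replicate 3. The calls of this comparison turned on M-*Shp2*-/- replicate 3. Without it, limma placed *Pdgfa* past the stricter rule at 2.41 (adjusted p = 0.00185), and *Hbegf* at 1.10 (adjusted p = 0.00771), *Spp1* at 1.24 (adjusted p = 0.00844) and *Pdgfb* at 0.81 (adjusted p = 0.0406) past the wider one. Over the alternatives the adjusted p ranged from 0.00185 to 0.772 for *Pdgfa*, 0.00771 to 0.555 for *Hbegf*, 0.00632 to 0.467 for *Spp1* and 0.0406 to 0.988 for *Pdgfb*. Over all genes, the number passing the stricter rule went from 0 to 159 and the wider from 8 to 2277 in the same fit. Without the library of each group that was highest in fibroblast markers, an alternative chosen after seeing the data, 3 members passed the wider rule of limma in this comparison, at adjusted p values of 0.00195 for *Pdgfa*, 0.00632 for *Spp1* and 0.00992 for *Hbegf*. That choice left 2 libraries per group. In the comparison of SHP099 with wild type it gave limma adjusted p values of 0.0188 for *Hbegf*, 0.0353 for *Spp1* and 0.122 for *Pdgfa*.

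The genes whose levels ran most like those of each member over the 9 libraries were taken by Pearson's r of log2(FPKM + 1) among the other 11449 genes tested. For *Hbegf* these were *Adora2b*, an adenosine receptor (0.993), *Il1rn*, the interleukin-1 receptor antagonist (0.992), and *Eva1b* (0.985). *Il1rn* had an FPKM of 348.3 to 444.9 in wild-type, 130.9 to 147.5 in M-*Shp2*-/- and 47.2 to 58.8 in SHP099 libraries, the same 3 steps as *Hbegf*. For *Spp1* they were *Emp1* (0.982), *Rai14* (0.971) and *Plpp3* (0.962), and *Emp1* likewise was low only with SHP099, at 25.8 to 37.2 FPKM against 57.6 to 76.9 elsewhere. For *Pdgfa* they were *Wfs1* (0.987), *Tm4sf19* (0.984) and *Fam111a* (0.984), and *Wfs1* was low, at 9.21 FPKM, in M-*Shp2*-/- replicate 3 as well. For *Ereg* the list held *Timp1* (0.956) and *Synpo* (0.955) beside a gene of the authors' own assembly (0.969), and *Timp1* was highest in M-*Shp2*-/- replicate 3 (207.1) and wild-type replicate 2 (147.8). For *Pdgfb*, *Igf1* and *Hgf* the closest genes were *Tma7* (0.958), *Pmpcb* (0.920) and *Chmp1b* (0.957), followed by *Ndufb11* and *Apobr*, by *Ap3s1-ps1* and *Zbtb3*, and by *Gem* and *Fmr1*. All points share the same 9 libraries and their group structure, so these values describe likeness only.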

How the data were processed

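RNA of 9 libraries, 3 each of wild-type, M-*Shp2*-/- and SHP099 macrophages, was sequenced. The authors deposited FPKM values per gene; per the submitters' processing notes, base calling used CASAVA 1.8, alignment HISAT2 2.0.4 and counting HTSeq 0.9.1. The tool and annotation behind FPKM and the strand used in counting are not given in the sources used here. A second deposited table, of gene spans assembled by the authors, was not used. Reads per gene were recovered from FPKM, transcript length and depth; for values up to 50 reads, 96.3% to 96.7% lay within 0.05 reads of a whole number. Depth was 39842783 to 50980869 reads per library. Floors cover counting error only. Confidence intervals are those of limma and rest on the spread between libraries.

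Symbols and positions came from GENCODE M21 (GRCm38) and promoters from RefSeq. Genes whose FPKM averaged 1 or more entered limma 3.58.1 (lmFit, eBayes with trend) in R 4.3.3 on log2(FPKM + 1), with 6 libraries per fit, two-sided tests and Benjamini-Hochberg adjustment over all genes. The fit was also run on simulated data with independent noise per gene and changes only in genes of higher level. That run does not cover effects shared within a library or genes of low level. Members below the filter had exact permutation tests. Tables and figures used Python 3.11.15 with numpy 2.4.6, pandas 2.3.3, scipy 1.17.1 and matplotlib 3.10.9. All 9 members were named, and of 8 pathway lists each gene with an adjusted p up to 0.05 and the most abundant, at most 5 by adjusted p, and 3 genes of the highest correlation per member. Other genes (receptors, ligands at or near 0, markers) were chosen after their values were seen. Members and lists were chosen with earlier results of these data known. Alternatives were pseudocounts of 0.1 and 5, no filter and a mean FPKM of at least 5, equal FPKM sums, quantile normalization, scaling by median of ratios, no trend in eBayes, all 9 libraries in 1 fit, replicate numbers as a block, voom on recovered reads, each library left out, and, chosen after seeing the data, the library of each group with the most fibroblast marker RNA left out.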

Additional observations from a re-analysis of the deposited data

How the results depend on the processing

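The number of members past the stricter rule with SHP099 against wild type, 1 in the report, was 0 with no filter, 0 with a mean FPKM of at least 5 (which removes *Hbegf*), 0 with the replicate block (adjusted p of *Hbegf* 0.0155 by limma), 0 without the libraries highest in fibroblast markers, 0 to 2 with each library left out, and 3 at an adjusted p up to 0.05 with no fold threshold. Whether replicate numbers pair across groups is not given. Deviations from the group mean correlated at -0.431 to 0.492 between libraries of the same number in different groups. At an adjusted p up to 0.05 the count of 3 was 1 with no filter and 1 to 3 with each library left out. In M-*Shp2*-/- cells against wild type the count of 0 at 0.05 was 1 with median-of-ratios scaling, 1 with quantile normalization and 1 with all 9 libraries in 1 fit. Between M-*Shp2*-/- and SHP099 the stricter count of 0 was 0 to 1, and that at 0.05 was 0 to 4, with each library left out, and they were 1 and 3 without the libraries highest in fibroblast markers.

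Of the pathway genes with SHP099, the stricter count of 0 was 9 with an adjusted p up to 0.05 and no fold threshold. The 9 at 0.05 were 0 with no filter, 0 without the libraries highest in fibroblast markers and 0 to 10.0 with each library left out. Between M-*Shp2*-/- and SHP099 the count of 0 was 0 to 11 with each library left out and 11 without the libraries highest in fibroblast markers.

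Log2 fold changes that reversed were all close to 0 or wide in spread. For *Ereg* in M-*Shp2*-/- cells they were -0.0752 with a pseudocount of 0.1, -0.0251 with median-of-ratios scaling, -0.0816 with quantile normalization, -0.14 with voom, -0.15 without the libraries highest in fibroblast markers and -0.57 to 0.46 with each library left out. In the same comparison *Hgf* had -0.0446 with median-of-ratios scaling, -0.0437 with quantile normalization, -0.32 without the libraries highest in fibroblast markers and -0.23 to 0.34 with each left out. *Pdgfa* had 0.64 and *Pdgfb* 0.27 without the libraries highest in fibroblast markers, and -0.77 to 0.50 and -0.52 to 0.26 with each left out. *Igf1* with SHP099 had 0.15 and -0.15 to 0.14. The cause was not tested. Over the members' fold changes and alternatives, 335 of 369 kept direction and their side of the stricter rule, 3 gained and 8 lost it, and 23 reversed. For the wider rule, 326 kept both, 10 gained it and 10 lost it.

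Fits with no filter tested more genes, and those with a library left out had fewer samples. Depth limits *Areg* and *Tgfa* most, at 1 to 23 and 7 to 165 reads per library. The source of replicates, the strand and the annotation are not given, and the libraries of a group differ in fibroblast marker RNA.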
